A study of Homo sapiens with 47 samples.

Results

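The 4 promoter regions whose HA signal served as the baseline of the HA ChIP-seq in this study are those of CTCF, SF3B4, TBP and TRIM28. They were taken by the coordinates given in the study's methods, 2000 bp each on hg19, and every peak that shared at least 1 bp with a region was read from the 47 deposited peak lists. They were 4 of the 20090 promoter regions examined, the others being windows of 1000 bp either side of the start of a protein-coding gene. No gRNA of the study was directed at any of them.

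The 4 genes encode nuclear proteins that most cells make. CTCF encodes a zinc-finger protein that binds insulators and, with cohesin, anchors chromatin loops. SF3B4 encodes a subunit of the SF3b complex, part of the U2 small nuclear ribonucleoprotein that recognises the branch point of introns. TBP encodes the TATA-binding protein, the core of the general factor TFIID. TRIM28, also called KAP1, encodes a co-repressor that KRAB zinc-finger proteins bring to chromatin. At the promoter of an active gene, RNA polymerase II (RNAPII) is found near the start of transcription and acetylated lysine 27 of histone H3 (H3K27ac) marks the nucleosomes around it.

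The regions were not centred alike on their genes. The CTCF region (ENSG00000102974, chr16:67594830-67596830, + strand) ran from -1540 to 460 bp of the annotated gene start and also held the start of the divergent long non-coding RNA CTCF-DT at -158 bp. The SF3B4 region (ENSG00000143368, chr1:149898675-149900675, - strand) was centred 20 bp downstream of the gene start and reached the end of MTMR11. The TBP region (ENSG00000112592, chr6:170862978-170864978, + strand) ran from -412 to 1588 bp, so most of it lay within the gene, whereas the TRIM28 region (ENSG00000130726, chr19:59054414-59056414, + strand) was centred at -17 bp and held the small RNA pseudogene RN7SL525P, which starts at -486 bp. Each region thus covered an upstream promoter and the first transcribed bases of its gene.

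The 200 bases before each gene start are printed below on the strand of the gene, 5′ to 3′, from hg19, because they show how unlike the 4 baseline promoters are, and the 100 bases round the median HA summit of CTCF are added. Capitals mark matches, on either strand, to the ETS letters CCGGAAG, to the GC box GGGCGG, to the CCAAT box, to the YY1 letters AAGATGG and to the letters TATAAA of the TATA box.
CTCF, chr16:67596170-67596369, + strand: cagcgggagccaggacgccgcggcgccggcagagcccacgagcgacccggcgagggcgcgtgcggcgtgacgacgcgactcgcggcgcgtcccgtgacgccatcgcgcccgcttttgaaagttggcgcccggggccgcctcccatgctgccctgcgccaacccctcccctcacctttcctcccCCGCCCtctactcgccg
SF3B4, chr1:149899696-149899895, - strand: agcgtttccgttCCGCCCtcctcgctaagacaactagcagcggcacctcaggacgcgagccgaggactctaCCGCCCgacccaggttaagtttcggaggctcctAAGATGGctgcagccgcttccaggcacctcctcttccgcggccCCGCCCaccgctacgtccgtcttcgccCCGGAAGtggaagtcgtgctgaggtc
TBP, chr6:170863190-170863389, + strand: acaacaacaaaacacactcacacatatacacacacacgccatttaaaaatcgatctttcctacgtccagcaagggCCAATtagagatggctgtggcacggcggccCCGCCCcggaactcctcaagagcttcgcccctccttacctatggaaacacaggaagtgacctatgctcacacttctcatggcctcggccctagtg
TRIM28, chr19:59055231-59055430, + strand: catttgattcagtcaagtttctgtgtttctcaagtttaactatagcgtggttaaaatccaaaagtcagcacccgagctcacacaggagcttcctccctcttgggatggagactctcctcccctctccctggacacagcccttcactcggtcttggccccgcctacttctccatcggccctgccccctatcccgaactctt
CTCF round the HA summit, chr16:67595976-67596075, + strand: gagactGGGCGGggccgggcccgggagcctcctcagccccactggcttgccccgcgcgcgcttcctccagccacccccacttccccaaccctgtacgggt

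CTCF had a GC content of 76% and 33 CpG dinucleotides in its 200 bases, more CpG than 97.5% of 20086 promoters. SF3B4 had 65% GC and 21 CpG. TBP had 52.5% GC and 9 CpG, and TRIM28 had 53% GC and 6 CpG, against medians of 61% and 12 over all promoters, so a pair of the 4 lay above the typical promoter and a pair below it. A GC box was found once in CTCF, at -17 bp, once in TBP, at -95 bp, and in SF3B4 at -188, -129 and -53 bp, and 46.5% of all promoters had one in a window of this length. SF3B4 also held the YY1 letters at -96 bp (2.68% of promoters) and the ETS letters at -26 bp (8.16%), TBP held CCAAT at -125 bp (29.2%), TRIM28 held none of the 5 motifs, and TATAAA (8.13%) was found in none of the 4. A match is a run of letters and not an observed binding site.

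Of the study's gRNAs for estrogen receptor binding sites (ERBSs) and for regions beside them, 71 could be read from its list and were compared with every 20-base site beside an NGG motif in the 4 regions. The closest site had 7 mismatches in CTCF (420 sites), 6 in SF3B4 (323 sites), 6 in TBP (241 sites) and 7 in TRIM28 (410 sites). None of the 4 held the last 12 bases of a gRNA next to NGG, which 75 of 20090 promoters (0.373%) did. The gRNAs of the IL1RN promoter were not part of this search.

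All libraries came from Ishikawa cells, a human endometrial adenocarcinoma line, kept in hormone-depleted medium, transfected with plasmids for a dCas9 fusion and for gRNAs, and selected with puromycin and G418. The fusion was dCas9-VP16(10x), which carries repeats of the VP16 activation domain, or dCas9-p300(core), which carries the acetyltransferase core of p300, and both carry the HA tag. For H3K27ac and RNAPII, each fusion was combined with gRNA Pool 1, Pool 2 or Pool 3 (ERBSs near MMP17, CISH, FHL2 and HES2), with gRNAs for adjacent regions or with gRNAs for the IL1RN promoter as control, in 2 libraries each. HA ChIP-seq comprised 5 dCas9-VP16(10x) libraries (2 with gRNAs for all ERBSs, 2 for adjacent regions, 1 for IL1RN) and 2 dCas9-p300(core) libraries with gRNAs for all ERBSs. No label says that replicates were separate cultures, so p-values measure the spread between these libraries, which may be technical. The cells were expressing a selected pool of plasmids, and an enrichment is an average over them, in which fewer occupied cells and weaker occupancy per cell cannot be told apart.

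The lists held 16041 to 40757 peaks for RNAPII, 1805 to 32052 for H3K27ac, 4785 to 30740 for HA of dCas9-VP16(10x), and 154 and 141 for HA of dCas9-p300(core). Read depth was not part of the lists. The names of the peaks carried 1 of 2 run identifiers, here run A and run B, or none. All 10 RNAPII libraries of dCas9-p300(core) came from run A, whereas those of dCas9-VP16(10x) came from run B (7) or had no identifier (3), so construct and run cannot be told apart for RNAPII. The H3K27ac libraries were mixed, with 5 of dCas9-VP16(10x) and 6 of dCas9-p300(core) in run A and the others without an identifier. One H3K27ac library, dCas9-VP16(10x) Pool 1 replicate 2, had peak names with the letter p that other names use for p300. The title of the H3K27ac library dCas9-VP16(10x) Adjacent replicate 1 also holds il1rn, so which gRNAs it carried is in doubt. RNAPII peaks lay in all 20 libraries at 6 of 8 epithelial and endometrial marker promoters, beside 37.7% of all promoters. The markers were SOX17, PAX8, CDH1, KRT8, KRT18 and KRT19, and KRT8 and KRT18 had identical values, so they are not separate evidence. EPCAM had an RNAPII peak in 6 libraries and CLDN4 in 0. The 4 leukocyte, 3 endothelial and 4 fibroblast marker promoters had none with peaks in all 20, and among them only CD79A (6 libraries) and COL1A1 (4 libraries) had an RNAPII peak at all.

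HA peaks were found at the baseline promoters in most libraries of dCas9-VP16(10x) and in none of dCas9-p300(core). The HA antibody recognises the tag on the dCas9 fusion, and no gRNA targeted these promoters. A peak was listed for 17 of the 20 pairs of promoter and library of dCas9-VP16(10x) and for 0 of the 8 pairs of dCas9-p300(core), whose 2 lists covered 0.00996% and 0.333% of all promoters. Of the values given next, fold enrichment is the deposited height of a peak over its background.

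CTCF had an HA enrichment of 10.2 and 50.1 in replicates 1 and 2 of the ERBS gRNAs, 5.62 and 28.8 in replicates 1 and 2 of the adjacent gRNAs and 13.8 with IL1RN gRNAs. TRIM28 had 11.2 and 46.3 with the ERBS gRNAs, 11.0 and 16.3 with the adjacent gRNAs and 6.54 with IL1RN gRNAs. SF3B4 had 6.87 and 16.4, 6.49 and 17.9, and 11.9 in the same libraries. The replicate 2 libraries of both gRNA sets were the 2 highest for CTCF, SF3B4 and TRIM28. TBP had an HA peak in those 2 libraries alone, at 14.0 with the ERBS gRNAs and 7.80 with the adjacent gRNAs. Those libraries also held the most peaks, 30740 and 25109 against 4785 to 8149 in the other 3, and HA peaks lay at 61.8% and 60.3% of all promoters against 16.9% to 28.7%. The part of the number of peaks in these differences was not tested.

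Of all promoters, 2365 of 20090 (11.8%) had an HA peak in each of the 5 dCas9-VP16(10x) libraries, and 3 of the 4 baseline promoters did. Among the 7582 promoters with an RNAPII peak in all 20 libraries the number was 2033, or 26.8%. Set among those 2365 promoters by mean log2 enrichment over the library's median, CTCF was higher than 88.4% (0.42), TRIM28 than 76.1% (0.24) and SF3B4 than 32.5% (-0.16). The spread of TRIM28 and of CTCF over the 5 libraries, with SDs of 0.63 and 0.54, exceeded that of 97.2% and 93.4% of these promoters. CTCF was above SF3B4 in 4 of 5 libraries and above TRIM28 in 3 of 5, and the mean log2 differences, 0.58 ± 0.68 and 0.18 ± 0.81 (SD, n = 5), were no larger than their spread.

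HA summits sat at a narrow place in each promoter. They lay between -434 and -328 bp of the CTCF start in all 5 libraries, with a median of -344 bp, which is inside the body of CTCF-DT and within the sequence printed above for that summit (75% GC). In SF3B4 they lay between -59 and 54 bp, in TRIM28 between 11 and 157 bp, and in TBP at 93 and 273 bp.

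**Figure D1:**
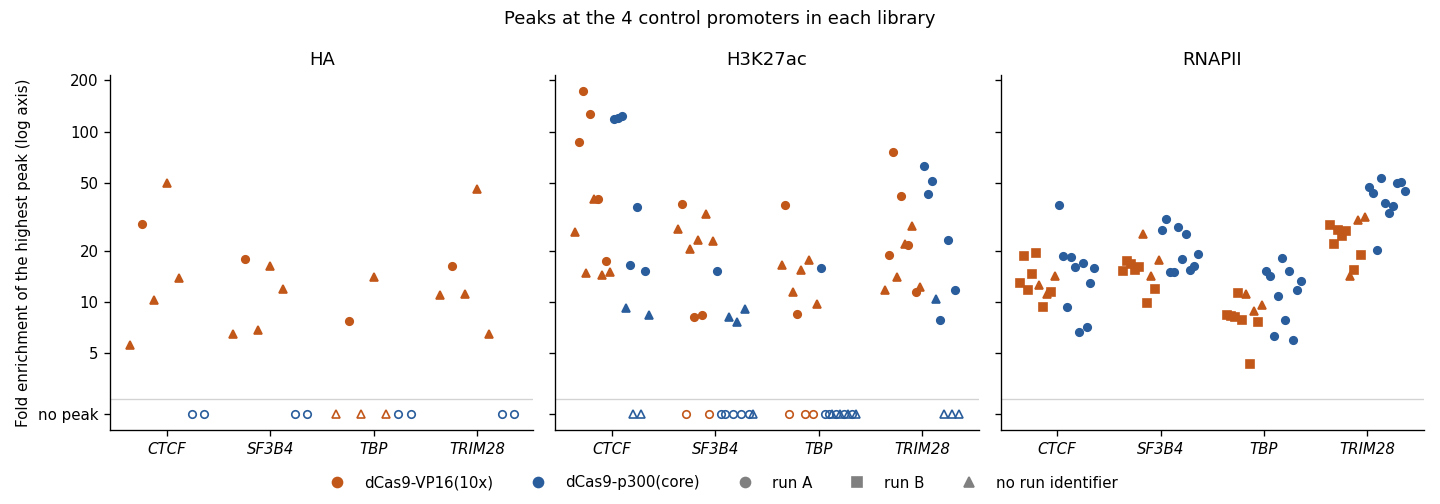
Fold enrichment (log axis) of the highest peak at each of the 4 baseline promoters, 1 point per library, by antibody, with open symbols for libraries without a peak, colours for the construct and shapes for the run identifier. HA peaks are seen in dCas9-VP16(10x) libraries and in neither dCas9-p300(core) library, RNAPII peaks in all 20 libraries, and H3K27ac peaks in 8 (TBP) to 18 (CTCF) of 20.

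The reads that set the HA baseline could be recovered from the normalized signal of the targeted regions. The authors divided each HA value by the mean of the control regions, so the signal that 1 read adds equals 1 over the mean number of reads per control region. In all 7 HA columns the values of 23 regions were whole multiples of such a step, within 0.02 of a step. The totals over 5 control regions came out whole in 7 of 7 columns, and the totals over the 4 listed regions in 1 of 7. The fifth region is not among the coordinates that the methods list and is not analysed here.

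For dCas9-p300(core), the baseline rested on 19 reads in replicate 1 and 28 reads in replicate 2, or 3.8 and 5.6 reads per region. The exact Poisson 95% intervals of these totals, 11.4 to 29.7 and 18.6 to 40.5, correspond to half-widths of 48.0% and 39.0%. For dCas9-VP16(10x), the totals were 197 reads with IL1RN gRNAs, 211 and 472 reads in the adjacent replicates 1 and 2, 510 reads in ERBS replicate 2 and 431 reads in the ERBS column that names no replicate. Their half-widths ran from 8.78% to 14.2%. A single read at a targeted region therefore counted as 0.263 of a baseline unit in replicate 1 of dCas9-p300(core) and as 0.00980 in ERBS replicate 2 of dCas9-VP16(10x). These intervals cover counting error only. The name of the ERBS replicate 2 column lacks the mark of duplicate removal that the other HA columns carry, so its reads may include duplicates. Both ERBS columns may come from the same library.

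**Figure D2:**
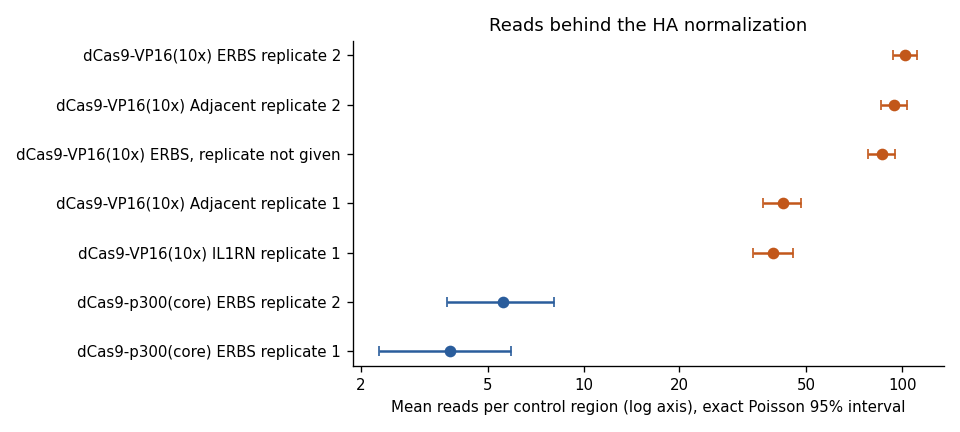
Mean reads per control region behind each HA column (log axis), with exact Poisson 95% intervals for counting error. The dCas9-p300(core) columns sit at 3.8 and 5.6 reads and the dCas9-VP16(10x) columns between 39.4 and 102.

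RNAPII peaks were found at all 4 promoters in all 20 libraries, as they were at 7582 of 20090 promoters (37.7%). TRIM28 had the highest RNAPII enrichment, followed by SF3B4, CTCF and TBP. The lowest, median and highest enrichments were 14.2, 30.9 and 53.7 for TRIM28, 9.88, 16.6 and 30.8 for SF3B4, 6.65, 13.6 and 37.4 for CTCF, and 4.36, 9.26 and 18.1 for TBP. The enrichment is a height over background and not a sum over a length. The background of each promoter was not part of the lists, so the order is one of enrichment and not of bound RNAPII.

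Within libraries this order was nearly constant. TRIM28 exceeded SF3B4 in 19 of 20 libraries, with a mean log2 difference of 0.79 ± 0.57 (SD, n = 20). SF3B4 exceeded CTCF in 16 of 20, by 0.37 ± 0.49, a mean difference smaller than its spread. CTCF exceeded TBP in 18 of 20, by 0.51 ± 0.44, and SF3B4 exceeded TBP in 20 of 20, by 0.88 ± 0.29. The neighbours SF3B4 and CTCF were thus the only adjacent pair whose mean difference was within 1 SD.

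Among the 7582 promoters with RNAPII in all libraries, the 4 spread over most of the range of levels. On the scale of mean log2 enrichment over the library's median, TRIM28 (0.78) was higher than 94.0% of them, SF3B4 (-0.01) than 50.5%, CTCF (-0.38) than 23.4% and TBP (-0.89) than 3.26%. The SDs over the 20 libraries were 0.49 for CTCF, 0.39 for SF3B4, 0.35 for TRIM28 and 0.33 for TBP, against a median of 0.29 over these promoters. CTCF varied more than 90.7% of them, and the other SDs stood above 62.1% to 77.7%.

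**Figure D3:**
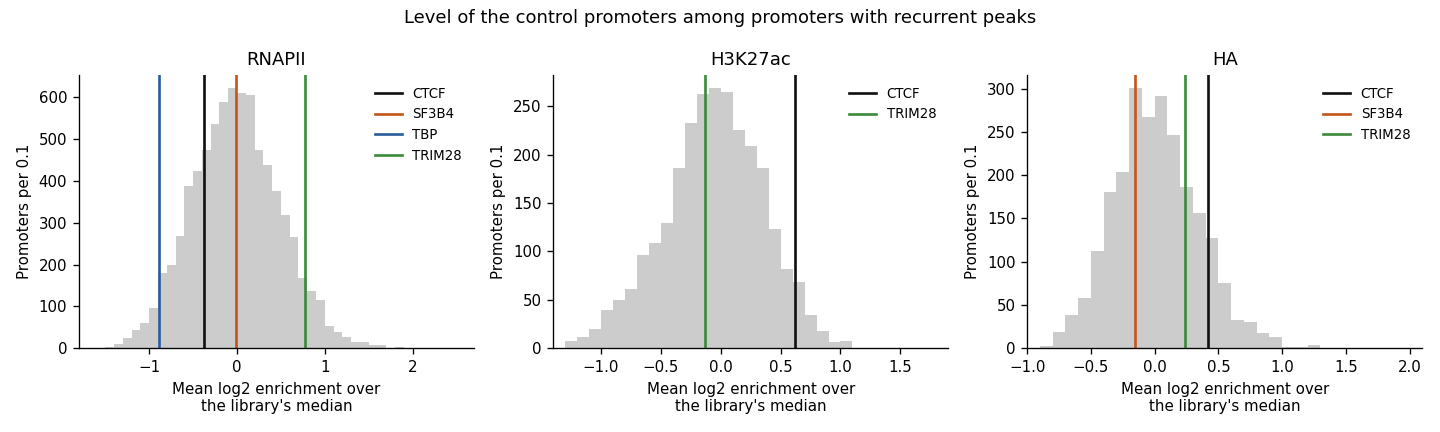
Number of promoters per 0.1 of mean log2 enrichment over the library's median (grey bars), for the 7582, 2698 and 2365 promoters with recurrent RNAPII, H3K27ac and HA peaks, with lines at the baseline promoters that met the same requirement. Each median is over the promoters shown. TBP (-0.89) and TRIM28 (0.78) lie near opposite ends for RNAPII, and CTCF is the highest of the lines for H3K27ac and HA.

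RNAPII summits were closely placed at 3 of the promoters and split at the other one. At TBP they lay between 48 and 135 bp downstream of the start, and at TRIM28 between 390 and 439 bp in 19 libraries, the exception being dCas9-VP16(10x) Pool 1 replicate 2 at -59 bp. At SF3B4 they lay between -159 and -17 bp, with medians of -150 bp in run B, -46 bp in run A and -43 bp in the libraries without an identifier. At CTCF, 13 libraries had the highest peak upstream of the start and 7 downstream. The upstream summits, like those of HA, fell inside CTCF-DT. By run, 8 of 10 libraries of run A, 2 of 7 of run B and 3 of 3 without an identifier had the upstream peak as the higher. Any contrast of the highest CTCF peak between run A and run B therefore mixes peaks from both sides of the start, in unlike proportions.

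**Figure D4:**
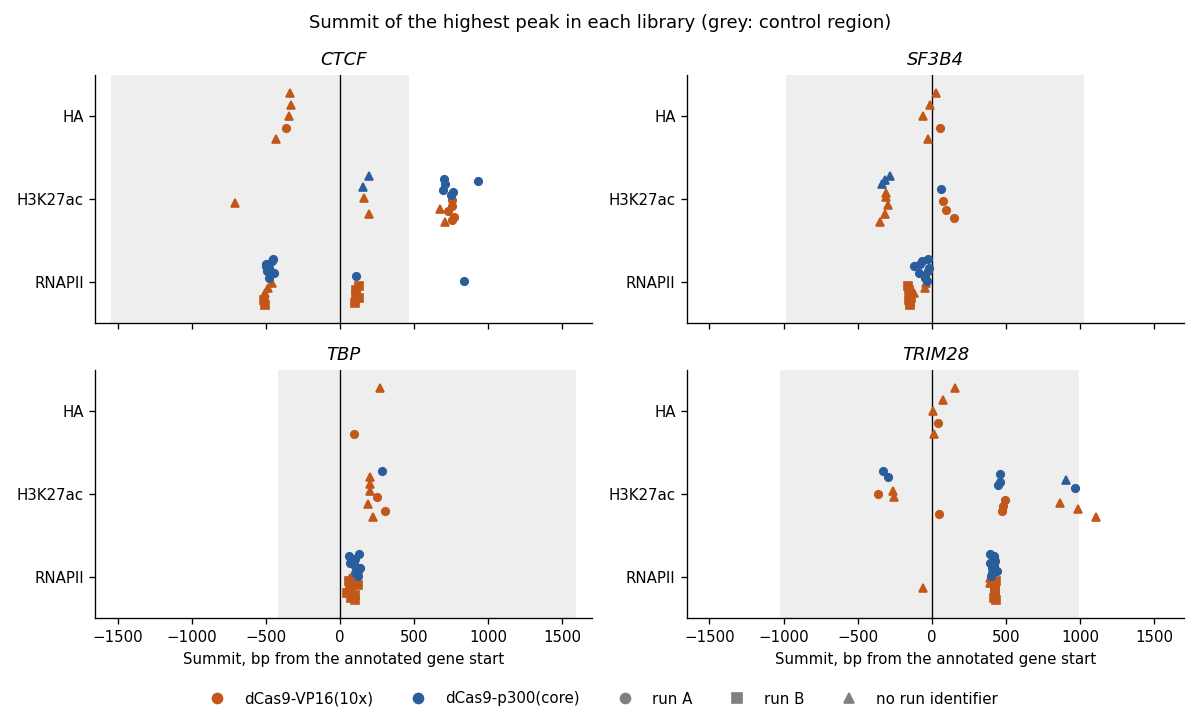
Position of the summit of the highest peak in each library, in bp from the annotated gene start (line at 0), with the control region shaded, colours for the construct and shapes for the run identifier. HA summits lie at -434 to -328 bp in CTCF, RNAPII summits of CTCF fall on both sides of the start, and H3K27ac summits of CTCF in run A lie 697 to 933 bp downstream, outside the region.

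RNAPII levels of the 4 promoters were next compared between the constructs, at promoters that no gRNA was designed for. Each library was centred on its median log2 enrichment over the promoters with a peak in every library, and limma was fitted over 9942 promoters. CTCF was higher in dCas9-VP16(10x) than in dCas9-p300(core) libraries, and the other 3 did not pass the limma test. As described above, the highest CTCF peak lay on different sides of the start in different libraries. As deposited, CTCF enrichments ran from 9.30 to 19.5 (median 12.8) in dCas9-VP16(10x) and from 6.65 to 37.4 (median 16.0) in dCas9-p300(core), and the groups overlapped. After centring, CTCF lay between -0.43 and 0.41 (median -0.09) and between -1.25 and 0.24 (median -0.70). The difference was 0.63 (SE 0.16, 95% interval 0.28 to 0.98, limma adjusted p = 0.0158), or 1.55-fold, although without centring it was -0.09 against a median of -0.74 over all promoters. A permutation test of the construct labels of the 20 libraries gave p = 0.00162 for CTCF, 0.0306 for SF3B4, 0.0329 for TBP and 0.558 for TRIM28, two-sided and unadjusted.

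SF3B4 differed by 0.35 (SE 0.16, limma adjusted p = 0.131), from a mean of -0.19 ± 0.46 in dCas9-p300(core) to 0.16 ± 0.21 in dCas9-VP16(10x) (SD, n = 10 each). TBP differed by 0.30 (SE 0.14, limma adjusted p = 0.140), from -1.04 ± 0.36 to -0.74 ± 0.22. TRIM28 differed by -0.10 (SE 0.16, 95% interval -0.43 to 0.24, limma adjusted p = 0.689), and its deposited enrichments were 14.2 to 31.6 (median 25.3) in dCas9-VP16(10x) and 20.1 to 53.7 (median 44.5) in dCas9-p300(core). Thus 1 of the 4 was called, in a comparison in which 2016 of 9942 promoters (20.3%) were, 1177 of them (11.8%) with the higher level in dCas9-VP16(10x). Without the library dCas9-p300(core) IL1RN replicate 1, SF3B4 (0.52, limma adjusted p = 0.00204) and TBP (0.40, limma adjusted p = 0.0343) were called too, and 3079 promoters in all. Since every dCas9-p300(core) library belonged to run A and no dCas9-VP16(10x) library did, these differences cannot be told apart from a difference of run. The libraries of dCas9-VP16(10x) without an identifier averaged -0.34 at CTCF and those of run B 0.06.

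No gRNA pool difference in RNAPII was called at any of the 4. The means of the 5 pools spanned 0.26 to 0.54 log2 units at the 4 promoters in dCas9-VP16(10x) and 0.50 to 0.69 in dCas9-p300(core). A moderated F test of limma over the pools called 0 of 9958 promoters (0%, 242 at an unadjusted p under 0.05) for dCas9-VP16(10x) and 0 of 10278 (0%, 231 unadjusted) for dCas9-p300(core). Unadjusted p-values of the 4 promoters in these limma F tests ran from 0.346 to 0.915. Each pool mean rests on 2 libraries. In dCas9-VP16(10x), each ERBS pool paired a library of run B with 1 without an identifier. Both libraries with adjacent gRNAs and both with IL1RN gRNAs were of run B. The fit had no run term, and 0 calls does not show that the pools were alike.

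H3K27ac was less regular than RNAPII. CTCF had a peak in 18 of 20 libraries, TRIM28 in 17, SF3B4 in 12 and TBP in 8. The lowest, median and highest enrichments were 8.39, 31.0 and 174 for CTCF, 7.83, 21.5 and 75.9 for TRIM28, 7.66, 17.9 and 37.5 for SF3B4, and 8.54, 15.6 and 37.3 for TBP. Among 2698 promoters with a peak in at least 15 libraries, CTCF (mean log2 enrichment over the library's median 0.62) was higher than 95.8% and TRIM28 (-0.13) than 41.4%. The median used here is over these 2698 promoters, whereas the tests below centre on promoters with a peak in every library. SF3B4 and TBP missed the requirement of 15 libraries and have no such position.

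An H3K27ac peak was listed for 35 of 40 pairs of promoter and library with dCas9-VP16(10x) and for 20 of 40 with dCas9-p300(core). TBP had an H3K27ac peak in 7 of 10 dCas9-VP16(10x) libraries, at 8.54 to 37.3 (median 15.4), and in 1 of 10 dCas9-p300(core) libraries, at 15.8 with the adjacent gRNAs in replicate 1. SF3B4 had one in 8 dCas9-VP16(10x) libraries, at 8.22 to 37.5 (median 22.9), and in 4 dCas9-p300(core) libraries, at 7.66, 8.15, 9.13 and 15.2. CTCF had one in 10 and 8, and TRIM28 in 10 and 7. Fisher's exact test, two-sided, gave p = 0.0198 for TBP, p = 0.170 for SF3B4, p = 0.474 for CTCF and p = 0.211 for TRIM28. The adjusted p of this Fisher's test for TBP was 0.0915, over all promoters with a peak in some but not all libraries. Of all 12416 promoters so tested, 3233 (26%) had a peak in more dCas9-VP16(10x) libraries at an unadjusted p under 0.05, and 3 passed after adjustment.

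Presence followed the length of the list at TBP but not at SF3B4. The 8 lists with a TBP peak held 21001 to 32052 peaks, and the 12 without held 1805 to 19860. For SF3B4, lists of 3020 peaks had one and lists of up to 18664 did not, and by run a peak was present in 4 of 11 libraries of run A and 8 of 9 without an identifier (Fisher's exact test, two-sided p = 0.0281, adjusted p = 0.293). The numbers of peaks were lower in dCas9-p300(core) lists (median 6143) than in dCas9-VP16(10x) lists (median 25025), and the part of this in the missing peaks was not tested.

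Levels of H3K27ac could be tested for CTCF and TRIM28. CTCF enrichments were 14.3 to 174 (median 32.9) in dCas9-VP16(10x) and 8.39 to 123 (median 26.4) in the 8 dCas9-p300(core) libraries with a peak. TRIM28 enrichments were 11.5 to 75.9 (median 20.2) and 7.83 to 63.2 (median 23.0, 7 libraries). The constructs overlapped at both promoters. The libraries without a peak, all of dCas9-p300(core), entered neither the limma nor the permutation tests below. Their lists held 3020 to 4346 peaks for CTCF and 1805 to 4346 for TRIM28. Leaving out lists in which no peak passed the threshold may raise the dCas9-p300(core) mean. After centring, the difference of dCas9-VP16(10x) from dCas9-p300(core) was -0.66 for CTCF (SE 0.40, 95% interval -1.52 to 0.21, limma adjusted p = 0.496) and -0.74 for TRIM28 (SE 0.21, 95% interval -1.21 to -0.28, limma adjusted p = 0.462), and without centring both signs turned, to 0.26 and 0.15. The exact permutation test gave p = 0.00452 for TRIM28 and p = 0.137 for CTCF, two-sided, unadjusted and without regard to run. Of the TRIM28 libraries with a peak, 5 of 10 of dCas9-VP16(10x) and 6 of 7 of dCas9-p300(core) belonged to run A, and with the run as a block the TRIM28 difference was -0.59 (limma adjusted p = 0.404). limma called 0 of 1983 promoters (0%, 200 at an unadjusted p under 0.05).

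Within run A the differences were -0.14 for CTCF (limma adjusted p = 0.883) and -0.57 for TRIM28 (limma adjusted p = 0.847), with 0 of 2735 promoters called (0%, 122 unadjusted). Within the libraries without an identifier, CTCF differed by -0.82 (SE 0.23, limma adjusted p = 0.0208), where only 2 dCas9-p300(core) libraries had a peak and the 1 residual degree of freedom leaves the p to the spread shared with other promoters, SF3B4 by -0.19 (limma adjusted p = 0.703), and 36 of 1474 promoters (2.44%) were called. Whether the differences of the run groups differ from each other was not tested.

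H3K27ac at CTCF also differed between runs. The enrichment of its highest peak was 15.2 to 174 (median 87.6) in the 11 libraries of run A and 8.39 to 40.3 (median 14.8) in the 7 others, and after centring run A was higher by 1.34 (SE 0.20, 95% interval 0.91 to 1.78, limma adjusted p = 0.000637). TRIM28 differed by 0.37 (SE 0.18, limma adjusted p = 0.0911). In this comparison 1087 of 1983 promoters (54.8%) were called. Summit positions of the run groups did not overlap at SF3B4 and TBP. At CTCF all 11 summits of run A lay 697 to 933 bp downstream of the start, beyond the region's edge at 460 bp, whereas the 7 without an identifier had a median of 194 bp and a highest value of 706 bp. At SF3B4 the 8 summits without an identifier lay between -350 and -285 bp and the 4 of run A between 63 and 149 bp. At TBP the 5 summits without an identifier lay between 191 and 220 bp and the 3 of run A between 249 and 307 bp. TRIM28 summits had medians of 461 bp in run A and 887.5 bp otherwise, but their ranges overlapped, from -365 to 969 bp and from -262 to 1109 bp. In 13 of 18 libraries the CTCF value therefore belonged to a peak that overlapped the region but had its summit outside it.

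No gRNA pool difference was called for H3K27ac. The limma F test found 0 of 2698 promoters (0%, 23 at an unadjusted p under 0.05) for dCas9-VP16(10x) and 0 of 1983 (0%, 130 unadjusted) for dCas9-p300(core), with unadjusted p-values of 0.288 to 0.669 for CTCF and TRIM28. Each dCas9-VP16(10x) pool paired a library of run A with 1 without an identifier, and the fit had no run term. The spread within pools therefore also held the difference between runs, which was called at 54.8% of promoters. Missing peaks left some pools of dCas9-p300(core) with 1 library at these promoters, and 0 calls does not show that the pools were alike.

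**Figure D5:**
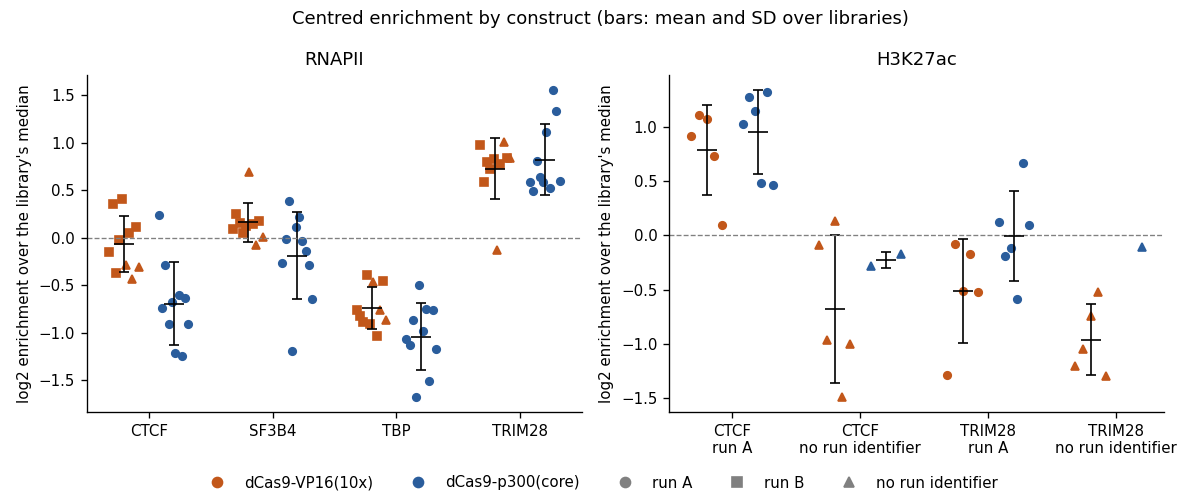
Log2 enrichment over the library's median, 1 point per library, by construct (colour) and run (shape), with the mean and SD. The median is over promoters with a peak in every library of the antibody. For RNAPII, CTCF is 0.63 higher in dCas9-VP16(10x) after centring (-0.09 without it), and TRIM28 is not called. For H3K27ac, CTCF is higher in run A than in the libraries without an identifier.

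Partners of the 4 genes were read from gene lists, and 37.7% of all promoters had RNAPII in all 20 libraries. Of 10 promoters of cohesin and its regulators, which work with CTCF, 7 had RNAPII in all 20 libraries, from 0.33 (NIPBL, the cohesin loader) to -0.40 (PDS5B) in mean log2 enrichment over the library's median. Of 9 tested, 2 were higher in dCas9-p300(core), WAPL (log2 difference -0.67), which releases cohesin, and PDS5A (-0.55), beside 839 of 9942 promoters (8.44%), and none was higher in dCas9-VP16(10x). The median difference of the cohesin group was -0.02. Of 9 promoters of SF3a and SF3b subunits, 8 had RNAPII in all libraries, from SF3A1 (0.38) to PHF5A (-0.61), and 3 of 8 tested were higher in dCas9-VP16(10x), by the limma test and beside 11.8% of all promoters, SF3A3 (log2 difference 0.52), SF3B3 (0.69) and SF3B5 (0.73). All 13 promoters of TBP-associated factors had RNAPII in all libraries, from TAF4 (0.92) to TAF8 (-0.93), and 3 of 13 were higher in dCas9-VP16(10x), again beside 11.8%, TAF8 (log2 difference 0.31), TAF9 (0.28) and TAF12 (1.03). The medians of the differences were 0.19 for the SF3 subunits and 0.16 for the TAFs, beside -0.01 over all 9942 promoters.

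Of 14 promoters of TRIM28 partners in silencing, 8 had RNAPII in all libraries, from MPHOSPH8 (0.65) to ATF7IP (-0.58), and 1 of 9 tested, CBX5 (log2 difference 0.65), which encodes heterochromatin protein 1 alpha, was higher in dCas9-VP16(10x), a share near the 11.8% of all promoters. Of 20 commonly used reference genes, 15 had RNAPII in all libraries, with the highest level at YWHAZ (1.11), and 1 of 17 tested, TUBB (log2 difference 0.70), was higher in dCas9-VP16(10x) and none lower, beside 11.8% and 8.44% of all promoters, with a median of 0.04. HA peaks in all 5 dCas9-VP16(10x) libraries were found at 5 of the 20 reference promoters, 1 of 10 cohesin promoters, 2 of 9 SF3 promoters, 2 of 13 TAF promoters and 3 of 14 TRIM28 partner promoters. The share was 11.8% of all promoters and 26.8% of those with RNAPII in all 20 libraries, which most list members had. Hence HA peaks were found at reference promoters other than the 4, and 2 of the 20 had an HA peak in no dCas9-VP16(10x) library. That pair includes a promoter whose window had no RNAPII or H3K27ac peak in any library. The start in use may lie outside such a window, so the pair does not show promoters free of HA.

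For each of the 4, the 3 promoters whose centred enrichment followed it most closely were taken from 286 promoters with a peak in all 40 H3K27ac and RNAPII libraries. For SF3B4 they were RBM39 (Pearson r = 0.89), FMC1-LUC7L2 (0.88) and POLR1G (0.87) over 32 libraries, and for TBP they were RBM39 (0.83), PPIG (0.83) and SRSF1 (0.79) over 28. For CTCF they were ENSG00000289490 (0.73), BMPR2 (0.73) and SEH1L (0.67) over 38 libraries, and for TRIM28 they were SUMO2 (0.68), SRSF2 (0.67) and S100A10 (0.65) over 37. ENSG00000289490 and BMPR2 had the same r with CTCF in H3K27ac libraries (0.83) and near-equal ones in RNAPII libraries (0.59). They may read the same peaks and not be separate evidence. The median r over the candidates was between -0.05 and 0.04. These values pool both antibodies. Within each antibody, r was 0.81 in H3K27ac and 0.45 in RNAPII libraries for SUMO2 with TRIM28, 0.92 and 0.52 for SRSF1 with TBP, 0.83 and 0.59 for ENSG00000289490 with CTCF, and 0.89 and 0.92 for RBM39 with SF3B4. The libraries share runs, and the correlations are a description only.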

How the data were processed

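HA, H3K27ac and RNAPII ChIP-seq libraries were sequenced by the authors as single-end 50-base reads, aligned to hg19 with Bowtie 1.1.2 and freed of duplicates with SAMtools, and peaks were called for each library, with MACS2 2.1.0.20140616 named in the submitters' processing notes. Whether an input library was used is not given in the sources used here. The deposited lists give fold enrichment as a ratio over background and the -log10 p of each peak, with 10.0007 the lowest value in any list. The deposited table gives normalized signal at 23 regions, HA values being divided by the authors by the mean of the control regions. Of its columns, 7 for HA were used and 40 for H3K27ac and RNAPII were not.

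The highest peak overlapping a region by at least 1 bp gave its enrichment, and a library without a peak was missing. Gene starts came from a GENCODE annotation on hg19, and sequences from the hg19 genome. Each gene had 1 start, the outermost of its annotation, so a start used in the cells may lie outside the window. Log2 enrichments were centred per library on promoters with a peak in every library of the antibody, promoters with peaks in at least 15 of 20 libraries were fitted in limma 3.58.1 (R 4.3.3) with 1 mean per construct and gRNA pool, and p-values were adjusted by Benjamini-Hochberg over all promoters at 0.05. Single promoters were tested by permutation of construct labels (exact, or 100000 resamples) in scipy 1.17.1, and presence by Fisher's exact test. The fits were tested on simulated data with 200 changed promoters.

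The promoters named are the 4 of the HA baseline, the target genes and IL1RN, genes starting in a control region, the 3 most alike promoters of each (none within 5 kb of a control region), and the highest and lowest of each gene list. The lowest of the reference genes is not reported here. List members that passed the test are also named, chosen after their values were seen. The members and lists were chosen with earlier results of these data known. Alternatives were other scalings, peak thresholds, overlaps and handling of missing peaks, blocks for replicate and run, and leaving out each library. Fits within a run, the run difference and Fisher's tests were added after seeing the data. Run identifiers were read from peak names.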

Additional observations from a re-analysis of the deposited data

Results flagged for a closer look

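One RNAPII library stood apart from the other 9 of its construct at a pair of the promoters. In dCas9-VP16(10x) Pool 1 replicate 2, SF3B4 had a centred log2 enrichment of 0.70 (deposited enrichment 25.1), and the next highest library had 0.25. In the same library TRIM28 had -0.13 (deposited enrichment 14.2), and the next lowest library had 0.59. Both gaps were above Dixon's 95% critical value for 10 values. SF3B4 exceeded TRIM28 in this library alone of the 20, and its TRIM28 summit lay at -59 bp while those of the other 19 lay at 390 to 439 bp. Of 18 groups of 4 or more libraries examined, these 2 were singled out, and chance singles out about 1 in 20 groups.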

How the results depend on the processing

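The RNAPII difference between constructs called 2016 promoters, 7441 without centring (35 higher in dCas9-VP16(10x)) and 1334 among promoters with a peak in every library. Without centring, 0.470% of calls were higher in dCas9-VP16(10x), against 58.4% with it and 56.7% after quantile normalization, the median of all promoters moved to -0.74, the CTCF difference turned to -0.091 (adjusted p = 0.729) and that of TRIM28 became -0.82 (adjusted p = 0.00307). Leaving out 1 library gave 1176 to 3079 calls, and the libraries that moved the count by over 1.5 times were dCas9-p300(core) IL1RN replicate 1 (3079), Adjacent replicate 1 (1284), Pool 2 replicate 2 (1176) and Pool 3 replicate 2 (1327) and dCas9-VP16(10x) Adjacent replicate 2 (1324). CTCF then ranged from 0.53 to 0.73, with adjusted p from 0.00457 to 0.0432. The titles of the RNAPII libraries dCas9-p300(core) IL1RN replicate 1 and Pool 3 replicate 1 hold the word backup. The run could not be fitted as a block for RNAPII. For H3K27ac the 0 calls between constructs became 4 without centring, 1 with the run as a block and 36 within the libraries without an identifier, remained 0 when any 1 library was left out and were 0 without the pair of libraries whose names or gRNAs were in doubt. RNAPII pool tests of dCas9-p300(core) gave 0 to 1 calls when 1 library was left out, the 1 call appearing without either IL1RN replicate. HA peaks numbered 13 to 17 when 1 library was left out and 14 at a -log10 p of at least 20. Whole totals of HA reads fell from 7 columns to 1 with 4 control regions. When the summit had to lie in the region, CTCF had H3K27ac peaks in too few libraries to be tested, and none of the 4 could be tested for H3K27ac when every library needed a peak.

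Equal replicate numbers went with shared deviations more often for H3K27ac than for RNAPII. Deviations of equal-numbered libraries had correlations over 0.1 in 29 of 45 pairs of groups for H3K27ac and 14 of 45 for RNAPII. The median correlations were 0.31 and 0.04, and the part of the run in this was not tested. With the replicate block, RNAPII gave 2186 calls between constructs, H3K27ac gave 0 (118 at an unadjusted p under 0.05), and CTCF had an RNAPII difference of 0.63 (adjusted p = 0.00627).

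The depth of the lists is unknown, and a missing peak means that none passed the authors' threshold, not that signal was absent. The 19 and 28 reads behind the dCas9-p300(core) baseline limit every HA ratio of that construct.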

Other observations

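Beside the 4 baseline promoters, those of the genes near the targeted ERBSs and of IL1RN were read in the same way. RNAPII peaks lay at the CISH and HES2 promoters in 19 of 20 libraries each and at the MMP17 promoter in 6, and none was listed at FHL2 or IL1RN. HA peaks of dCas9-VP16(10x) lay at CISH in 5 of 5 libraries (enrichment 4.96 to 19.1), at HES2 in 4 (10.3 to 104) and at MMP17 in 2 (24.4 and 35.5). The windows of FHL2 and IL1RN had none. Each window lies round the outermost annotated start of its gene. Whether the IL1RN promoter at which the paper reports HA signal lies in that window was not checked. The missing peaks therefore do not bear on that report. The CISH range lay within that of CTCF, 5.62 to 50.1, apart from its lowest value.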
